A study of Mus musculus with 18 samples.

Results

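The genes of oxidative phosphorylation were described in bone marrow-derived macrophages (BMDM) given oxidized low-density lipoprotein (oxLDL). Members were the gene symbols that begin with Nduf, Uqcr, Atp5 or Cox and a digit, together with Sdha, Sdhb, Sdhc, Sdhd and Cyc1, that reached at least 1 RPKM in at least 3 of 18 libraries. RPKM are reads scaled by transcript length and by the mapped reads of a library, so that levels of different genes can be set roughly side by side. The length used for each gene is not given in the sources used here, and the order of genes by level depends on it. The symbols were matched by 104 of the 18668 symbols in the table, and 98 of them passed the limit. By known function these were 36 subunits of complex I, 4 of complex II, 9 of complex III, 11 of complex IV and 17 of complex V, 17 assembly factors and 4 other genes. The 4 other genes were Cox7a2l, known as a factor of supercomplexes, which are joined complexes, Cox7a1, the muscle isoform of a complex IV subunit, and Ndufb4c and Ndufs5-ps. The last 2 are near copies of Ndufb4 and Ndufs5 that can share reads with them, and their values are uncertain.

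Oxidative phosphorylation is carried out in the inner mitochondrial membrane. Complex I takes electrons from NADH and complex II takes them from succinate, both pass them to ubiquinone, complex III hands them on to cytochrome c, and complex IV reduces oxygen. The proton gradient built on the way drives complex V, the ATP synthase. In macrophages the balance between this pathway and glycolysis is known to differ between resting and inflammatory states, and some subunits of complexes I, III, IV and V are made from mitochondrial DNA.

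All cells came from mice on a C57BL6 background that lacked Apoe, the apolipoprotein that clears lipoprotein remnants, and there was no group with Apoe. 9 libraries came from the Apoe-/- genotype. The other 9 were Apoe-/-/Treml4-/- and are called DKO, for double knockout, since they also lack the myeloid surface receptor Treml4. Marrow cells were grown with M-CSF and were left untreated or given oxLDL at 10 or 60 µg/ml, with 3 biological replicates in each of the 6 groups. The sources name different lengths of exposure and one label mentions LPS, so that no exposure time is given here.

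The depth, recovered from the steps of low RPKM values, was 39.7 to 54.2 M reads per library. Treml4 lay between 1.86 and 8.39 RPKM in Apoe-/- cells, and its highest value in any library labelled DKO was 0.0116 RPKM. All 8 macrophage markers were expressed, with a sum of 6530 to 12000 RPKM in Apoe-/- and 5560 to 11000 RPKM in DKO libraries, lower at oxLDL 60 (6530 to 8480 and 5560 to 7150 RPKM) than in untreated cells (8930 to 11800 and 8380 to 11000 RPKM). Sums were far lower for markers of neutrophils (7 genes, 30.1 to 82.3 RPKM), fibroblasts (6 genes, 0.55 to 14.2 RPKM), endothelial cells (4 genes, at most 4.59 RPKM), B cells (5 genes, at most 2.42 RPKM), T cells (5 genes, at most 0.798 RPKM), dendritic cells (4 genes, at most 0.358 RPKM) and erythroid cells (4 genes, at most 0.107 RPKM). Xist, the transcript of the inactive X chromosome, was above 1 RPKM in replicate 2 of every Apoe-/- group and in replicate 3 of every DKO group. Replicate 1 of untreated Apoe-/- cells stood apart, with a median-ratio factor of 0.8953, which is its overall level relative to the other libraries. The counts and named members that pass in Apoe-/- cells with oxLDL, and the members' median at oxLDL 60, are also given without it. Values of genes outside the members are not.

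The members were among the more abundant transcripts of these macrophages. Their mean level over 18 libraries had a median of 53.0 RPKM, against 6.52 RPKM for all 12838 genes tested, and 55 members were at 50 RPKM or more. Together they made up 1.89% to 2.05% of the summed RPKM of a library. Of the 13 subunits encoded by mitochondrial DNA, 0 symbols were found in the table, so the comparison covers the nuclear share of each complex.

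Levels were lower in complex I than at the end of the chain. Complex I subunits had a median of 46.3 RPKM, from 11.5 RPKM for Ndufab1, the mitochondrial acyl carrier protein, to 112 RPKM for Ndufa2. With all annotated exons of a gene joined, Ndufab1 had a length of 6883 bases and Ndufa2 of 572. What part the length had in the order of genes or complexes was not tested. The complex II subunits, which also form an enzyme of the tricarboxylic acid cycle, lay close together, from 57.6 RPKM for Sdha, the flavoprotein, to 88.2 RPKM for Sdhb, the iron-sulfur subunit. Complex III ranged from 32.8 RPKM (Uqcrq) to 146 RPKM (Uqcr11), with a median of 93.2 RPKM. Complexes IV and V were highest, with medians of 160 and 137 RPKM. Their most abundant members were Cox4i1 at 319 RPKM, a nuclear subunit that cytochrome c oxidase needs for assembly, and Atp5b at 351 RPKM, the catalytic beta subunit of ATP synthase.

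Assembly factors, which build the complexes but are not part of them, were far below the subunits. Their median was 6.85 RPKM, and they ranged from 1.96 RPKM for Cox11 to 52.4 RPKM for Cox17, both of which deliver copper to complex IV. The lowest member of all, Cox11, was above 1 RPKM in all 18 libraries, with a lowest value of 1.58 RPKM.

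**Figure D1:**
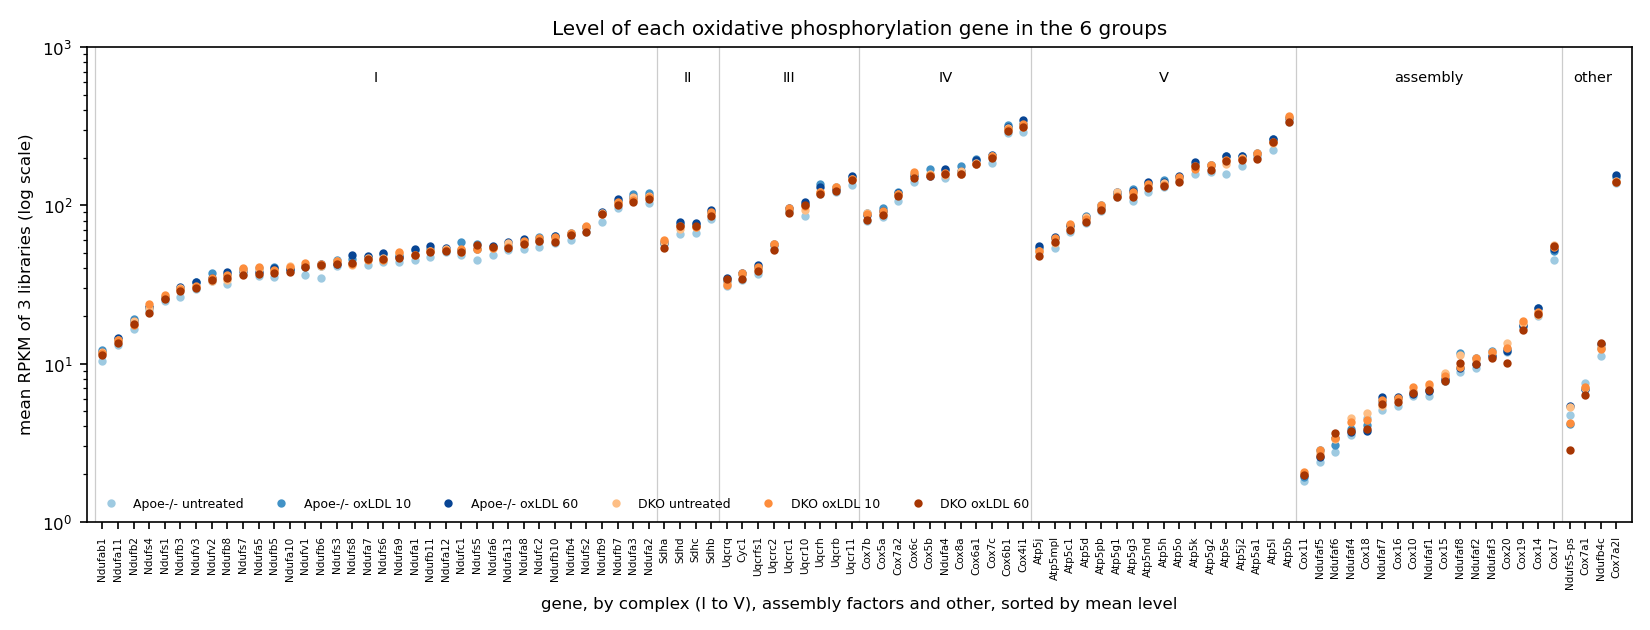
Mean RPKM of 3 libraries (vertical axis, log scale) of each of the 98 genes (horizontal axis), by complex and sorted by level, with a point for each of the 6 groups. The 6 points of a gene nearly coincide except for Ndufs5-ps, while genes differ from 1.96 RPKM (Cox11) to 351 RPKM (Atp5b).

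The isoforms used were the general ones. Cox4i1 was at 319 RPKM, whereas Cox4i2, known as the lung and low-oxygen isoform, reached at most 0.217 RPKM in any library. Of the muscle isoforms, Cox6a2 reached at most 0.878 RPKM and Cox8b at most 0.063 RPKM. Cox7a1 was the one muscle isoform that passed the limit, at 5.57 to 8.66 RPKM, against 97.9 to 127 RPKM for its general counterpart Cox7a2. Cox6b2, the testis isoform, and Ndufa4l2, a low-oxygen relative of Ndufa4, stayed under 0.851 and 0.104 RPKM, and Ndufa11b under 0.177 RPKM. These 6 symbols fell short of the limit of 1 RPKM in all 18 libraries, and a gap separates them from the lowest members.

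Many genes of the pathway are known targets of the transcription factors NRF1 and YY1 and of the ETS family, and so their promoters were searched for 7-letter cores of these motifs. RefSeq promoter windows (GRCm38.p6, from 250 bases before to 50 bases after the start) were at hand for 80 of the 98 members, and both strands were read. The NRF1 core GCGCATG was found in 15 of these 80 members (18.8%), in 7.89% of the tested genes with a window and in 3.91% of all windows. The YY1 core AGATGGC was also held by 15 members (18.8%), by 8.6% of tested genes and by 6.4% of windows. The ETS core CCGGAAG was held by 24 members (30.0%), 20.4% of tested genes and 8.86% of windows, and the TATA box TATAAA by 7 members (8.75%), 8.92% of tested genes and 13.6% of windows. No motif contains another. These are counts of letters, with no test and no measure of binding.

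For 7 members that span the complexes, picked after their values were seen, the stretch around the NRF1 core is shown with the core in capitals, so that the flanks can be compared. Each stands 5′ to 3′ in the direction of its gene (GRCm38.p6), and in Sdhb and Ndufa8 the core lies on the other strand and reads CATGCGC.
Ndufb6 (complex I), chr4:40279482-40279508, minus strand: agagggctttGCGCATGagcagagcct
Ndufa8 (complex I), chr2:36049329-36049355, minus strand: gctggagacgCATGCGCagatggtacc
Sdhb (complex II), chr4:140961208-140961234, plus strand: gcccagtgggCATGCGCcctacgggcc
Uqcrc1 (complex III), chr9:108936668-108936694, plus strand: actccgctctGCGCATGcgcagcgcgg
Cox5b (complex IV), chr1:36691426-36691452, plus strand: aggcagaactGCGCATGtgcggcgtct
Cox6a1 (complex IV), chr5:115349104-115349130, minus strand: caggaacgggGCGCATGcgcgctctcg
Atp5g2 (complex V), chr15:102671073-102671099, minus strand: ggctccggccGCGCATGcgcagagcct
The YY1 core lay 11 to 39 bases after the start in 10 of its 15 holders. It is shown in capitals for 3 of them, also picked after their values were seen.
Cox20 (assembly factor), chr1:178319069-178319095, plus strand: acgctccctaAGATGGCcgccgccgcg
Ndufaf8 (assembly factor), chr11:120098935-120098961, plus strand: gcagggcccaAGATGGCggcgccctcg
Ndufc1 (complex I), chr3:51408916-51408942, minus strand: ctgcggaacaAGATGGCgccgtccgta
In Cox20 the core lay before the start, and in Ndufaf8 and Ndufc1 it lay after it.

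The question of the first comparison was how oxLDL acts on macrophages that have Treml4. In Apoe-/- cells the members were slightly higher with oxLDL, and in no case by 1.4-fold, the limit for a call together with an adjusted p under 0.05 (limma, Benjamini-Hochberg over all genes). At oxLDL 60 the median change of the members was 0.14 on the log2 scale (1.1-fold), against 0.06 for all genes tested. By this rule 0 of 98 members were called, while 13.9% of all genes were. At an unadjusted p under 0.05 limma gave 44 members, all higher, and 25.1% of all genes were higher by that measure. Of the 5003 genes at 10 RPKM or more, 1688 were. At oxLDL 10 the median was 0.16 (1.11-fold), against 0.07 for all genes. Again 0 members were called, against 2.79% of all genes, and 49 members had an unadjusted p under 0.05 by limma, all higher (15.8% of all genes). Of the 5003 genes at 10 RPKM or more, 1308 were higher by that measure.

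Without the limit on the fold, 21 members (21.4%) were higher at oxLDL 60 at an adjusted p under 0.05, against 18.5% of all genes and 25.6% of the genes at 10 RPKM or more. At oxLDL 10 there were 6 (6.12%), against 3.92% of all genes and 7.22% of those at 10 RPKM or more. In this fit the members' shares thus lay between those of all genes and of the abundant ones. The 21 at oxLDL 60 came from every complex, with 10 of 36 in complex I, 3 of 4 in complex II, 2 of 9 in complex III, 2 of 11 in complex IV, 3 of 17 in complex V and 1 of 17 assembly factors. With the animal as a block, 35 members (35.7%) were higher at oxLDL 60 (and 1 lower), against 24.5% of all genes and 32.4% of those at 10 RPKM or more. At oxLDL 10 the block gave 19 (19.4%), against 10.6% and 17.6%. With the block alone the members' shares thus lay slightly above both. With the block and libraries rescaled by their median ratio, the shares at oxLDL 60 were 27.6% of members and 30.4% of genes at 10 RPKM or more. At oxLDL 10 they were 21.4% and 15.7%. With the block and libraries centred within bins of transcript length they were 20.6% and 29.9% at oxLDL 60, and 6.19% and 13.8% at oxLDL 10. The order of the shares thus changed with the setting.

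In complex I the largest change at oxLDL 60 was that of Ndufb6, a membrane arm subunit (chromosome 4, 40270591 to 40279421, GRCm38). It measured 34.3, 34.9 and 35.2 RPKM in the untreated Apoe-/- libraries, 45.4, 40.1 and 38.5 RPKM at oxLDL 10 and 47.5, 41.1 and 38.8 RPKM at oxLDL 60. Both treated groups lay above all untreated values, and the change at oxLDL 60 was 0.28 ± 0.08 (log2 ± SE, 1.22-fold, limma adjusted p = 0.0142). Ndufs3, a core subunit, had the lowest estimate, 0.05 ± 0.06 (adjusted p = 0.624). Ndufv1, which binds NADH and holds the flavin, was higher by 0.18 ± 0.06 (adjusted p = 0.0305), or 0.11 without untreated replicate 1 (adjusted p = 0.139), and Ndufs1, the largest iron-sulfur subunit, was at 0.06 ± 0.06 (adjusted p = 0.487).

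In complex II the iron-sulfur subunit and both membrane anchors were higher at oxLDL 60, and the flavoprotein did not pass the test. Sdhd, an anchor, measured 59.0, 68.3 and 69.8 RPKM in untreated Apoe-/- cells and 78.7, 81.3 and 73.8 RPKM at oxLDL 60, groups that did not overlap. Its change was 0.25 ± 0.06 (1.19-fold, limma adjusted p = 0.00517), beside 0.22 ± 0.07 for Sdhc (adjusted p = 0.0182) and 0.19 ± 0.05 for Sdhb (adjusted p = 0.0113). Sdha was at 52.1, 56.3 and 62.0 RPKM untreated and at 58.4, 57.3 and 60.6 RPKM at oxLDL 60, a change of 0.05 ± 0.07 (limma adjusted p = 0.628) between groups that overlapped.

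In complex III the small subunit Uqcr10 (chromosome 11, 4701973 to 4704342, GRCm38) had the largest change. Its untreated Apoe-/- values were 76.0, 87.7 and 92.6 RPKM. At oxLDL 10 they were 99.7, 113 and 95.1 RPKM, and at oxLDL 60 they were 106, 109 and 100 RPKM, all above the untreated ones. The change at oxLDL 60 was 0.30 ± 0.07 (1.23-fold, limma adjusted p = 0.00482). The Rieske protein Uqcrfs1 differed by 0.19 ± 0.06 (adjusted p = 0.0202), cytochrome c1 (Cyc1) by 0.14 ± 0.06 (adjusted p = 0.0896) and Uqcrb by 0.05 ± 0.08 (adjusted p = 0.666).

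In complex IV, Cox4i1 (chromosome 8, 120668222 to 120674207, GRCm38) measured 255, 314 and 305 RPKM untreated, 320, 349 and 307 RPKM at oxLDL 10 and 348, 364 and 324 RPKM at oxLDL 60. The lowest of these values was that of untreated replicate 1, and the oxLDL 60 libraries lay above the untreated ones by 0.25 ± 0.07 (1.19-fold, limma adjusted p = 0.0165), or 0.16 without that library (adjusted p = 0.0743). Ndufa4, named after complex I but known as a subunit of complex IV, was at 0.21 ± 0.08 (adjusted p = 0.0485), or 0.12 without untreated replicate 1 (adjusted p = 0.228). It no longer passed the adjusted p under 11 of 18 alternatives. At the other end Cox5b was at -0.03 ± 0.06 (adjusted p = 0.765), and Cox5a and Cox6a1 at 0.12 ± 0.06 (adjusted p = 0.12) and 0.07 ± 0.06 (adjusted p = 0.394).

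In complex V, Atp5e, the small epsilon subunit of the central stalk (chromosome 2, 174461072 to 174464105, GRCm38), had the largest change of the 98 members at oxLDL 60. It measured 142, 167 and 164 RPKM untreated, 191, 244 and 176 RPKM at oxLDL 10 and 206, 207 and 200 RPKM at oxLDL 60. The untreated group lay below both treated groups, with changes of 0.36 ± 0.09 (limma adjusted p = 0.0241) and 0.38 ± 0.09 (1.3-fold, adjusted p = 0.00415). The subunits of the catalytic head did not pass the test. Atp5a1, the alpha subunit, was at 0.05 ± 0.06 (adjusted p = 0.554) and Atp5b at 0.08 ± 0.08 (adjusted p = 0.471).

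Cox7a2l was at 0.16 ± 0.12 (limma adjusted p = 0.333), and the muscle isoform Cox7a1 at -0.12 ± 0.15.

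Among the assembly factors, Ndufaf7, a methyltransferase that acts on complex I, was higher at oxLDL 60 by 0.26 ± 0.08 (limma adjusted p = 0.0182). Ndufaf6 had the highest estimate, 0.29 ± 0.12, and did not pass (adjusted p = 0.0766). Cox18, which inserts the second mitochondrial-encoded subunit of complex IV, had the lowest, -0.27 ± 0.15 (adjusted p = 0.188). At oxLDL 10 the largest estimate of a member was that of Ndufaf8, 0.39 ± 0.11 (adjusted p = 0.0472), from 8.29, 9.13 and 9.24 RPKM untreated to 11.8, 12.4 and 10.8 RPKM. At oxLDL 60 Ndufaf8 measured 9.19, 9.65 and 9.09 RPKM, 0.07 ± 0.11 from untreated (adjusted p = 0.7). Ndufc1, a small complex I subunit, measured 58.4, 58.0 and 58.9 RPKM at oxLDL 10 above 46.0, 49.5 and 50.1 RPKM untreated (0.27 ± 0.07, limma adjusted p = 0.0234), and 53.9, 52.2 and 51.1 RPKM at oxLDL 60.

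**Figure D2:**
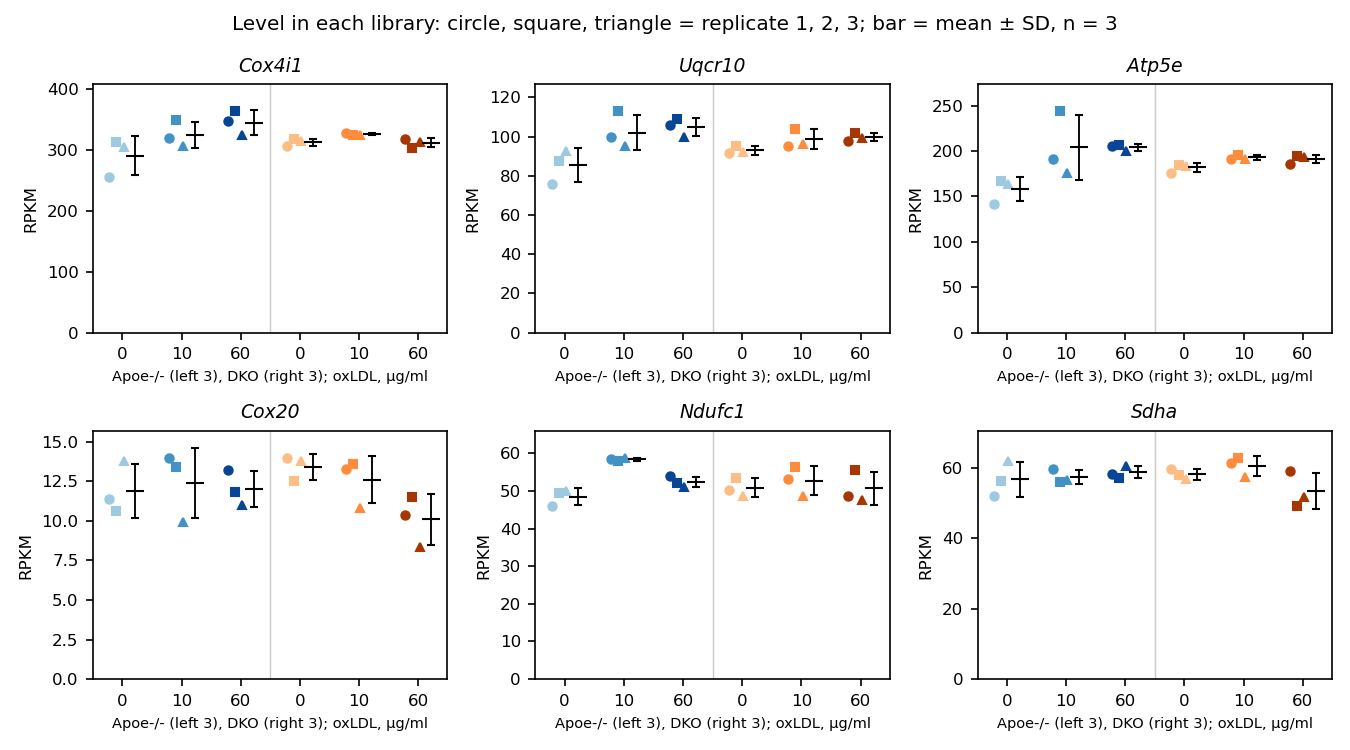
RPKM of 6 genes (vertical axis, from 0) in each library, by genotype and oxLDL in µg/ml (horizontal axis), with the mean and SD of 3 replicates. Cox4i1, Uqcr10 and Atp5e are lowest in untreated Apoe-/- replicate 1, Ndufc1 is highest at oxLDL 10 in Apoe-/-, Cox20 is lowest in DKO at oxLDL 60 and Sdha shows overlapping groups in Apoe-/- cells.

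The shift of the members in Apoe-/- cells was largest in the replicate 1 libraries. With replicates of the same number taken as 1 animal, the median of the members at oxLDL 60 over untreated was 0.30 in animal 1, 0.12 in animal 2 and 0.01 in animal 3, with 96, 83 and 53 of the 98 members higher. Over all genes tested the medians were 0.17, 0.03 and -0.02. After each library was rescaled by its median-ratio factor, those of the members were 0.12, 0.09 and 0.03. At oxLDL 10 the medians of the members were 0.30, 0.15 and -0.01, against 0.22, 0.02 and -0.04 for all genes. In untreated replicate 1 the members lay 0.22 below their own mean over 18 libraries, and all genes tested lay 0.15 below theirs. Each complex was low in that library alike, from 0.20 below for complex III to 0.24 below for complex II, and the assembly factors were 0.18 below.

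Without this library the median at oxLDL 60 was 0.07, and 6 members were higher (and 1 lower) at the adjusted p without the limit on the fold, rather than 21. That was 6.12% of the members, against 12.9% of all genes and 18.0% of those at 10 RPKM or more. The 6 were Atp5e (0.30, limma adjusted p = 0.0249), Ndufb6 (0.27, 0.04), Uqcr10 (0.22, 0.0254), Sdhd (0.17, 0.0208), Ndufa8 (0.16, 0.039) and Sdhb (0.13, 0.0404). Among those that no longer passed were Cox4i1 (0.16, limma adjusted p = 0.0743), Ndufa4 (0.12, 0.228), Ndufv1 (0.11, 0.139), Sdhc (0.17, 0.0794), Uqcrfs1 (0.16, 0.0736) and Ndufaf7 (0.20, 0.0837). At oxLDL 10 Atp5e was then at 0.28 (limma adjusted p = 0.0944), Ndufaf8 at 0.34 (0.147) and Ndufc1 at 0.23 (0.0777), and none of the 6 passed. The count at oxLDL 60 fell to 5 without oxLDL 60 replicate 1 (14.3% of all genes), and to 12 without oxLDL 60 replicate 2 (15.3%). It was 34 without untreated replicate 3 (21.5%). At oxLDL 10 it ranged from 0 (and 1 lower) without untreated replicate 1 to 15 without untreated replicate 3 (6.7% of all genes). It was 1 without untreated replicate 2 (2.11%) or oxLDL 10 replicate 1 (1.4%) and 2 without oxLDL 10 replicate 2 (3.32%). After each library was rescaled by its median ratio the median at oxLDL 60 was 0.08, with 12 members higher and 1 lower at the adjusted p. Of all genes 16.6% were then higher and 17.4% lower. The members are short transcripts, with a median exon length of 1789 bases against 4244 for all genes tested. After each library was centred within bins of transcript length the median was 0.04, with 9 members higher and 2 lower (16.7% and 16.6% of all genes). What part the scale of the library or the transcript length had in the shift was not tested.

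**Figure D3:**
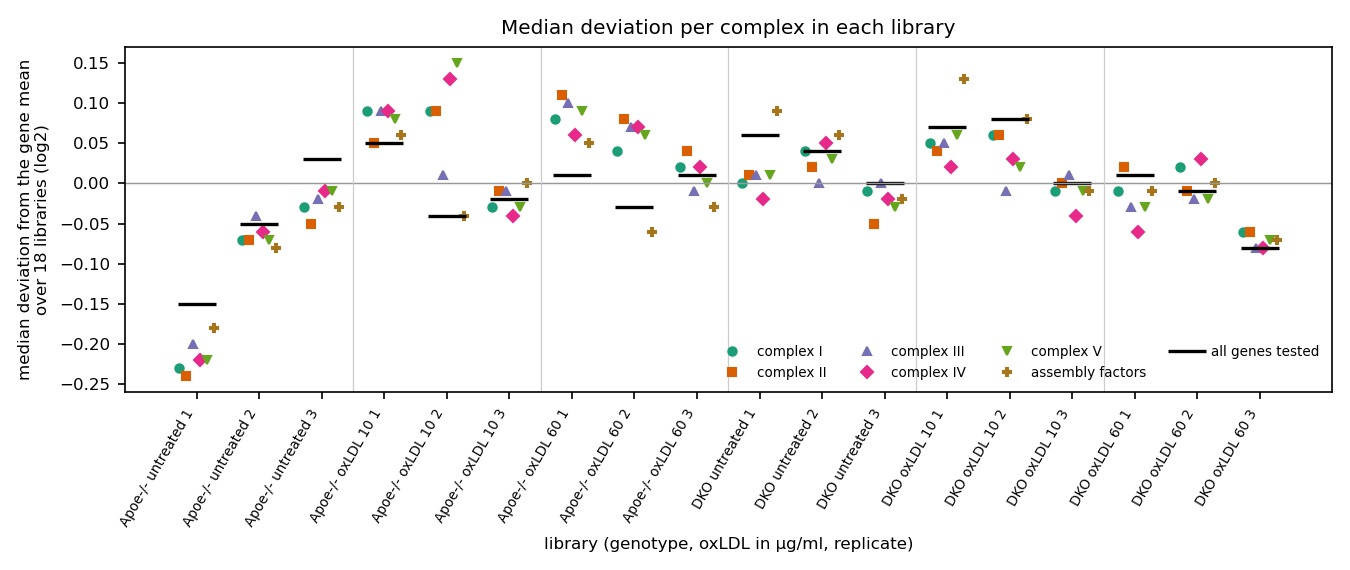
Median over the genes of each complex of the deviation from the gene's own mean over 18 libraries (vertical axis, log2) in each library (horizontal axis), with a black bar for all genes tested. Untreated Apoe-/- replicate 1 is the lowest library for every complex, and the other 17 libraries lie within 0.15 of 0.

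In DKO cells the medians of the members were close to those of all genes. At oxLDL 10 the median change was 0.02, the same as for all genes, with 0 of 98 members called (2.26% of all genes were) and 1, lower, at an unadjusted p under 0.05 by limma (6.19% of all genes). At oxLDL 60 the median was -0.05, against -0.06 for all genes, and it turned to 0.01 after rescaling of the libraries. Of 98 members 0 were called (12.2% of all genes were), and limma gave 5 at an unadjusted p under 0.05, all lower (23.6% of all genes). The 3 animals had medians of -0.04, -0.04 and -0.05 at oxLDL 60 (-0.06, -0.05 and -0.08 for all genes). At oxLDL 10 they were 0.05, 0.01 and -0.01 (0.02, 0.04 and 0.0 for all genes).

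Cox20 was the one member at an adjusted p under 0.05 in DKO cells, and 16.8% of all genes were lower by that measure. It is a chaperone for the second mitochondrial-encoded subunit of complex IV (chromosome 1, 178319130 to 178322693, GRCm38). It measured 14.0, 12.5 and 13.8 RPKM untreated, 13.3, 13.6 and 10.8 RPKM at oxLDL 10 and 10.4, 11.5 and 8.35 RPKM at oxLDL 60. The oxLDL 60 libraries lay below the untreated ones, by -0.42 ± 0.14 on the log2 scale (0.748-fold, limma adjusted p = 0.0368). An exact two-sided permutation test of these 3 against 3 values gave p = 0.10, the smallest that this number of libraries allows. In Apoe-/- cells the same gene was at 0.02 ± 0.14 (limma adjusted p = 0.949), and the difference between the genotypes was -0.44 ± 0.20 (adjusted p = 0.509). Cox20 no longer passed under 6 of 18 alternatives, with -0.29 without DKO oxLDL 60 replicate 3 (limma adjusted p = 0.183), -0.45 without replicate 1 of that group (0.0593), -0.39 and -0.40 without DKO untreated replicates 1 and 3 (0.111 and 0.0927), -0.27 without the Xist-positive libraries (0.227) and -0.42 with no filter on low values (0.0722). Without DKO oxLDL 60 replicate 2 it was at -0.52 and would be called (adjusted p = 0.0235). With the animal as a block, 3 members were lower at the adjusted p, against 23.1% of all genes.

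Cox18, its partner in the same step, had the next lowest estimate among the assembly factors, -0.34 ± 0.15 in DKO (limma adjusted p = 0.107), and -0.27 ± 0.15 in Apoe-/- cells. In DKO its untreated values of 4.56, 5.09 and 4.87 RPKM lay above the 4.28, 4.34 and 2.92 RPKM at oxLDL 60. Ndufs5-ps had the lowest estimate of all members, -0.83 ± 0.33 (adjusted p = 0.0771), with scattered values of 6.73, 3.28 and 5.89 RPKM untreated and 2.59, 3.42 and 2.48 RPKM at oxLDL 60. Without DKO untreated replicate 2 this near copy was at -1.14 and would be called (adjusted p = 0.0241). Ndufs5 itself was at 0.10 ± 0.13 (adjusted p = 0.646).

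Among the subunits in DKO cells, no estimate at oxLDL 60 was beyond 0.15 in either direction. The highest and lowest were Ndufs5 (0.10) and Ndufa5 (-0.12) in complex I, Sdhd (0.07) and Sdha (-0.13) in complex II, Uqcr10 (0.10) and Uqcrc2 (-0.11) in complex III, Ndufa4 (0.02) and Cox7b (-0.15) in complex IV, and Atp5e (0.07) and Atp5a1 (-0.11) in complex V. Uqcr10 measured 91.6, 95.4 and 91.9 RPKM untreated and 97.9, 102 and 99.3 RPKM at oxLDL 60. Cox4i1 measured 306, 318 and 315 RPKM untreated and 318, 304 and 313 RPKM at oxLDL 60.

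The higher dose was also set against the lower one. In Apoe-/- cells the median of the members was -0.00 (-0.01 for all genes), with 0 of 98 called (6.46% of all genes were) and 3 lower at an unadjusted p under 0.05 by limma (13.4% of all genes). In DKO cells it was -0.06 (-0.08 for all genes), and 0.02 after rescaling, with 0 called (5.66% of all genes were) and 7 lower at an unadjusted p under 0.05 by limma (22.1% of all genes).

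The effect of Treml4 loss was asked by comparing DKO with Apoe-/- cells at each dose. In untreated cells the members were 0.11 higher in DKO by the median (0.09 for all genes), and 0.01 higher after rescaling. Of 98 members 0 were called (0.21% of all genes were), and 21 were higher at an unadjusted p under 0.05 by limma (16.1% of all genes). Of the 5003 genes at 10 RPKM or more, 1027 were higher by that measure. The lowest adjusted p of a member was 0.105, that of Cox17, the copper chaperone, at 42.4, 45.0 and 47.3 RPKM in Apoe-/- and 56.8, 59.7 and 50.6 RPKM in DKO cells (0.31 ± 0.08). The 2 largest estimates were 0.35 ± 0.11 for both Ndufaf4 (adjusted p = 0.157) and Ndufaf8 (adjusted p = 0.156). Ndufaf4 measured 3.51, 3.14 and 3.91 RPKM in Apoe-/- and 4.85, 4.59 and 4.07 RPKM in DKO cells. In a fit with a term for the Xist-positive libraries, 3 members were higher in untreated DKO cells at an adjusted p under 0.05. By that measure 6.64% of all genes and 9.39% of those at 10 RPKM or more were higher. Without the Xist-positive libraries 1 member was, against 4.42% and 6.02%.

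At oxLDL 10 the median difference between the genotypes was -0.01 (0.05 for all genes), with 0 members called (0.0857% of all genes were) and 3 lower at an unadjusted p under 0.05 by limma (1.88% of all genes). At oxLDL 60 it was -0.08 (-0.02 for all genes), with 0 called (0.125% of all genes were) and 6 lower at an unadjusted p under 0.05 by limma (5.26% of all genes). Of the 5003 genes at 10 RPKM or more, 121 at oxLDL 10 and 438 at oxLDL 60 were lower by that measure. In these comparisons the lowest adjusted p of a member was 0.48 and 0.539. The 95% interval of the difference at oxLDL 60 lay within 1.4-fold in both directions for 96 of the 98 members, against 74.9% of all genes tested and 94.5% of the 5003 genes tested at 10 RPKM or more.

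Whether oxLDL 60 acted differently in the genotypes was tested as an interaction. The estimate was negative for all 98 members, for 10025 of the 12838 genes tested and for 4567 of the 5003 at 10 RPKM or more. Its median was -0.20, against -0.11 for all genes and -0.14 for those at 10 RPKM or more. Of the members 0 were called (0.0156% of all genes were). At an unadjusted p under 0.05 limma gave 32 members, all lower. By that measure 9.37% of all genes were lower, and 796 of the 5003 at 10 RPKM or more. The lowest adjusted p of a member was 0.507. The median was -0.13 without untreated Apoe-/- replicate 1, -0.08 after rescaling and -0.04 after centring by transcript length. The interaction shares the untreated Apoe-/- libraries with the comparisons above, so its direction is not separate evidence.

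**Figure D4:**
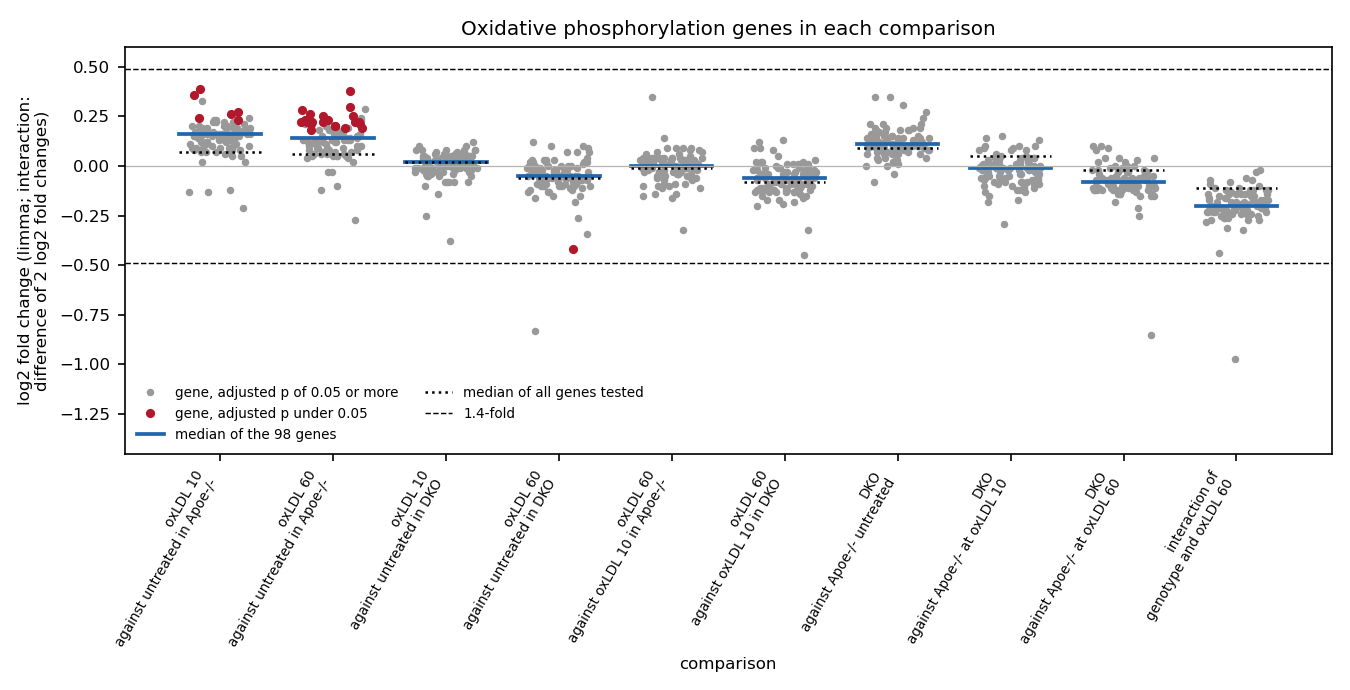
log2 fold change from limma (vertical axis) of each of the 98 genes in 10 comparisons (horizontal axis), with the median of the members, the median of all genes tested and dashed lines at 1.4-fold. Red points have an adjusted p under 0.05 (6 and 21 in Apoe-/- with oxLDL 10 and 60, 1 in DKO with oxLDL 60), and none of them is beyond the lines. The grey points below the lower line, at -0.83, -0.85 and -0.97, are Ndufs5-ps.

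The width of the intervals sets what these libraries can resolve. At oxLDL 60 the 95% interval of the change lay within 1.4-fold in both directions for 92 members (93.9%) in Apoe-/- and 94 members (95.9%) in DKO cells. Over all genes tested this held for 56.5% and 58.5%, and over those at 10 RPKM or more for 72.9% and 75.3%. The intervals that reached past 1.4-fold were those of Atp5e, Ndufs5, Cox18, Ndufaf6, Ndufb4c and Ndufs5-ps in Apoe-/- cells and of Cox18, Cox20, Ndufaf4 and Ndufs5-ps in DKO cells.

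Over all 6 groups, the group means of 97 of 98 members lay within 1.4-fold of each other, against 70.0% of all genes tested. Of the members at 10 RPKM or more this held for all 86, against 80.3% of the 5003 such genes. The exception was Ndufs5-ps, whose group means spanned 0.91 on the log2 scale. The median span was 0.19 for members, 0.27 for genes at 10 RPKM or more and 0.33 for all genes tested. The SD between replicates had a median of 0.09 for members and 0.12 for all genes. The order of the members by level was nearly the same in every group, with a Spearman rho across the 98 genes of 0.997 to 0.999 over the 15 pairs of groups, where genes are not independent replicates. In bulk samples fewer cells of a kind and less RNA per cell cannot be told apart.

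The rest of the pathway was described from gene lists with the same fit. Of 39 other assembly factors of the 5 complexes, 0 were called in any of the 10 comparisons, and their medians at oxLDL 60 were 0.14 in Apoe-/- and -0.04 in DKO cells. Of 22 electron carriers and exchangers 1 was called at oxLDL 60 in Apoe-/- cells, where 13.9% of all genes were. It was Gpd2, the glycerol-3-phosphate dehydrogenase that feeds ubiquinone beside complexes I and II. Its values were 6.26, 6.85 and 6.75 RPKM untreated and 4.71, 4.19 and 4.89 RPKM at oxLDL 60, groups that did not overlap, and it fell by -0.52 ± 0.08 on the log2 scale (limma adjusted p = 0.00016). In DKO the change of Gpd2 was -0.41 ± 0.08 (adjusted p = 0.00152), under the limit on the fold, and the difference between the genotypes was 0.11 ± 0.12 (adjusted p = 0.759).

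The partners of the complexes were described next. Cytochrome c (Cycs) was at 47.4 ± 2.92 RPKM untreated and 49.7 ± 3.48 RPKM at oxLDL 60 in Apoe-/- cells (mean ± SD, n = 3), a change of 0.07 ± 0.09 on the log2 scale (limma adjusted p = 0.63). Ucp2, an uncoupling protein abundant in leukocytes, was at 81.7 ± 8.91 and 91.9 ± 9.79 RPKM (0.17 ± 0.11, limma adjusted p = 0.268). Atpif1, which blocks the reverse reaction of ATP synthase, was higher at 84.6 ± 6.20 than at 68.6 ± 5.57 RPKM (0.30 ± 0.07, limma adjusted p = 0.00319), again under the limit on the fold, and in DKO it was at 0.08 ± 0.07 (adjusted p = 0.458).

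The regulators of mitochondrial biogenesis were listed with 17 genes, of which 16 were tested and 0 called. Tfam, which transcribes and packs mitochondrial DNA, had 6.55, 6.46 and 6.58 RPKM in untreated DKO cells and 5.57, 5.41 and 5.17 RPKM at oxLDL 60. The groups did not overlap, and the change was -0.27 ± 0.07 (limma adjusted p = 0.0116), beside -0.11 ± 0.07 in Apoe-/- cells (adjusted p = 0.274) and an interaction of -0.16 ± 0.11 (adjusted p = 0.598). Nrf1 was at 4.70 ± 0.354 RPKM and Esrra at 13.7 ± 1.13 RPKM in untreated Apoe-/- cells, with changes at oxLDL 60 of 0.03 ± 0.07 (limma adjusted p = 0.798) and 0.05 ± 0.08 (adjusted p = 0.69). The coactivator Ppargc1b was low, at 0.286 ± 0.031 RPKM untreated and 0.194 ± 0.0305 RPKM at oxLDL 60 (-0.39 ± 0.15, limma adjusted p = 0.0539). Ppargc1a reached at most 0.0126 RPKM in any library and was not tested.

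The tricarboxylic acid cycle (19 genes tested) had 0 calls in the 10 comparisons, with medians at oxLDL 60 of 0.11 in Apoe-/- and -0.06 in DKO cells. Among 78 proteins of the mitochondrial ribosome, which translates the subunits encoded by mitochondrial DNA, 1 was called at oxLDL 60 in each genotype (13.9% and 12.2% of all genes were), and it was Mrpl52 in both. It measured 49.6, 57.1 and 57.7 RPKM in untreated Apoe-/- cells and 28.7, 24.7 and 27.2 RPKM at oxLDL 60, and in DKO cells it went from 58.6 ± 5.92 to 29.4 ± 2.73 RPKM (mean ± SD, n = 3). It fell in both genotypes, by -1.03 ± 0.09 (limma adjusted p = 2.4e-07) and -0.99 ± 0.09 (adjusted p = 3.9e-07), with an interaction of 0.03 ± 0.13 (adjusted p = 0.944). The median of this list was 0.12 in Apoe-/- and -0.10 in DKO cells.

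The 79 proteins of the cytosolic ribosome, also short and abundant transcripts outside the mitochondrion, had 0 calls and medians close to those of the members. At oxLDL 60 they were 0.14 in Apoe-/- and -0.08 in DKO cells, 0.17 between the genotypes in untreated cells and -0.21 for the interaction. For the members the same medians were 0.14, -0.05, 0.11 and -0.20.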

How the data were processed

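The 18 libraries were made from total RNA, and the paper's methods name poly(A) selection for library preparation. The authors aligned reads with STAR (per the labels, to mm10) and deposited 1 table of RPKM values for 18668 symbols, which were used as deposited. The methods name a workflow with Subread, a package for counting reads, and the counting settings and annotation are not given in the sources used here. Since the table holds no counts, limma 3.58.1 (R 4.3.3, eBayes with trend) was fitted to log2(RPKM + 0.1) of the 12838 genes that reached 0.1 RPKM in 3 or more libraries, with a mean for each of 6 groups and 12 residual degrees of freedom. Log2 fold changes are on that scale, which understates changes of low genes. A call needed a Benjamini-Hochberg adjusted p under 0.05 over all genes tested and a fold of at least 1.4. Alternatives changed the pseudocount, filter, scaling, length centring, an Xist term, the groups fitted and the block, or left out a library.

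The members and lists were chosen with earlier results of these data known. Named were a set list of genes with central roles, the highest and lowest member of each complex at oxLDL 60 in each genotype, any called member, and members that passed the adjusted p or stood out otherwise, these last chosen after their values were seen. Genes, positions and lengths came from GENCODE M21 (GRCm38), with a length for 97 members. Depth was recovered from steps of low values, of which 89.4% of 13578 lay within 0.05 of a whole number of reads. Intervals are for a difference of group means and rest on the spread between libraries.

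Replicate numbers were tested for pairing by the correlation of deviations from the group means. Libraries of 1 genotype with the same number had r of 0.18 to 0.70 (18 pairs, median 0.41), those with other numbers a median of -0.35, and those of the other genotype with the same number a median of -0.17. The deviations within a group cancel out, so the negative median for other numbers follows from the positive one and is not separate evidence. From the same-number correlations, the numbers were taken as animals within a genotype. Replicates were biological per the labels, and p-values rest on the spread between these libraries. The SE, intervals and adjusted p of named genes come from fits without the animal as a block. The label for sequencing names several instruments, and which library was run on which cannot be told. statmod 1.5.0, Python 3.11.15, scipy 1.17.1 and matplotlib 3.10.9 were also used, and the fit was tested on simulated data.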

Additional observations from a re-analysis of the deposited data

How the results depend on the processing

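The count of 0 called members held in all 10 comparisons under every alternative that kept all libraries and the limit on the fold. Without that limit the counts in the main fit were 6 at oxLDL 10 and 21 at oxLDL 60 in Apoe-/- cells and 1 at oxLDL 60 in DKO cells, and 0 in the other 7 comparisons. When each library was left out in turn, the count of called members at oxLDL 60 in DKO cells was 0 to 1. The members' median ranged over these omissions from 0.09 to 0.20 (oxLDL 10) and 0.07 to 0.18 (oxLDL 60) in Apoe-/- cells, from 0.05 to 0.16 between untreated genotypes and from -0.24 to -0.13 for the interaction.

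Rescaling by the median ratio moved the median to 0.02 for oxLDL 60 against 10 in DKO cells, 0.01 between untreated genotypes and -0.08 for the interaction. Centring by transcript length moved it to 0.04 at oxLDL 10 and 0.04 at oxLDL 60 in Apoe-/- cells, 0.01 between untreated genotypes and -0.04 for the interaction. The cause of these moves was not tested.

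The animal as a replicate block left the calls at 0. Combinations of the block with a scaling, and counts without the limit on the fold under each setting, were chosen after seeing the data. At oxLDL 60 in Apoe-/- cells the members past the adjusted p numbered 27 higher and 2 lower with the block and rescaling (22.4% of all genes were higher), 20 higher and 3 lower with the block and length centring (22.5%), 29 higher with an Xist term (22.7%), 11 without the Xist-positive libraries (16.0%) and 3 with only the compared groups in the fit (14.4%). Of the genes at 10 RPKM or more, 30.4% were higher with the block and rescaling and 29.9% with the block and length centring. The share of these genes was 30.6% with the Xist term, 21.8% without the Xist-positive libraries and 19.6% with only the compared groups. Atp5e and Uqcr10 passed at oxLDL 60 under all 18 settings.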
